A study of Mus musculus with 10 samples.

Results

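Replication-dependent histone genes were followed in mouse embryos of the 8-cell stage by total RNA sequencing. Members were the rows of the deposited tables whose gene symbol starts with Hist1h, Hist2h, Hist3h or Hist4h, which gave 68 of 24421 genes. By their symbols, 6 are H1 genes, 18 H2A, 19 H2B, 12 H3 and 13 H4, and 1 of the H2B members, Hist3h2bb-ps, is annotated as a processed pseudogene. By cluster, 54 lie in Hist1 on chromosome 13, 10 in Hist2 on chromosome 3, 3 in Hist3 on chromosome 11 and 1 in Hist4 on chromosome 6. All embryos were of BDF1 genotype, the controls included, and 5 groups had 2 libraries each. Ctrl embryos were labelled as controls, siKlf5 as a Klf5 knockdown and siTfap2c as a Tfap2c knockdown. Arpc1bE_CdxE1_KO and CdxE2_KO were labelled as knockouts of Tfap2c motifs. Ages, the number of embryos in a library and the reagents behind each knockdown or knockout were not given in the sources used here. The libraries were primed with random oligonucleotides on total RNA, so transcripts without a poly(A) tail entered them. Whether the 2 libraries of a group came from separate pools of embryos is not stated, so each p-value reflects the variation among these libraries alone, which may be technical.

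Histone proteins package DNA: H2A, H2B, H3 and H4 form the core of the nucleosome, and H1, the linker histone, binds where DNA enters and leaves it. The replication-dependent genes are made in S phase to supply the new chromatin, and their mRNAs end in a conserved stem-loop in place of a poly(A) tail. Slbp, the stem-loop binding protein, guides the 3' end processing, stability and translation of these mRNAs, and Npat, a coactivator at the histone clusters, drives their transcription. In cleavage embryos every cycle needs histones for a newly copied genome. Klf5 is a zinc finger factor and Tfap2c a factor of the AP-2 family, both active in the early embryo.

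The stem-loop is shown because it is the processing signal these mRNAs share and because its letters separate H4 from the other types. The pattern searched was GG, any 2 bases, CTTTT, any base, AG, any 2 bases and CC, within 200 bases after the stop codon in GENCODE M21 transcripts, on the mRNA strand. Of the 68 members, 52 had at least 30 bases of annotated sequence there, and 44 of these held the motif: 4 of 5 for H1, 11 of 11 for H2A, 10 of 14 for H2B, 8 of 10 for H3 and 11 of 12 for H4. Capitals mark the stem arms of 6 bases each and lower case the loop of 4 bases, as DNA letters 5′ to 3′. In mm10 they lie at chr13:23555787-23555802 on the plus strand (Hist1h1d), chr13:21722506-21722521 on the plus strand (Hist1h2bm), chr13:23752820-23752835 on the plus strand (Hist1h3b), chr13:22040966-22040981 on the minus strand (Hist1h4i) and chr13:21735437-21735452 on the plus strand (Hist1h4j), each after the stop codon.
Hist1h1d: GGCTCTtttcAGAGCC
Hist1h2bm: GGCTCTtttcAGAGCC
Hist1h3b: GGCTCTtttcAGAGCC
Hist1h4i: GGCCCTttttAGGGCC
Hist1h4j: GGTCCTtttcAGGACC
All 33 stems found in H1, H2A, H2B and H3 genes started with GGCTC. Of the H4 stems, 9 started with GGCCC and 2 with GGTCC. Among H2B genes with enough sequence, Hist1h2bc, Hist1h2br, Hist1h2bq and Hist2h2be had no match to these letters.

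Promoters of 61 members were found in the RefSeq windows of GRCm38.p6, each running from 250 bases before to 50 after the gene start. The letters CCAAT, searched on both strands, stood in 85.2% of member windows and in 37.4% of 32851 windows of all genes. All 49 windows of H1, H2A, H2B and H3 genes held it, against 3 of 12 for H4. TATAAA stood in 57.4% of member windows against 13.6% of all. The octamer ATTTGCAT stood in 7 of 17 H2A and 6 of 16 H2B windows, in 0 windows of the other types and in 1.74% of all windows. GCCNNNGGC, an AP-2 type motif, stood in 8.2% of member windows against 16.6% of all. CCNCNCCC, a Klf type motif, stood in 37.7% of member windows against 49.5% of all. By type it stood in 10 of 12 H4 windows (83.3%) and in 1 of 16 H2B windows (6.25%). The shares for H1, H2A and H3 were 33.3%, 41.2% and 30.0%. The 250 bases before the start are printed for 2 H2B genes that fell in siKlf5, and for an H4 and an H1 gene that fell in siTfap2c. They lie at chr13:21721794-21722043 on the plus strand (Hist1h2bm), chr3:96269450-96269699 on the plus strand (Hist2h2bb), chr13:22041363-22041612 on the minus strand (Hist1h4i) and chr13:23554782-23555031 on the plus strand (Hist1h1d). Capitals mark the CCAAT letters, the TATA letters and the octamer, or their reverse complements.
Hist1h2bm: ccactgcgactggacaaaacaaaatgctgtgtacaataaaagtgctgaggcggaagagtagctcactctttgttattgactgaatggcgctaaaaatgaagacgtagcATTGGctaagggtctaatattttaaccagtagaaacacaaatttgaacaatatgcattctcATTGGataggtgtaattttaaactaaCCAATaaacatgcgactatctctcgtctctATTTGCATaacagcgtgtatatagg
Hist2h2bb: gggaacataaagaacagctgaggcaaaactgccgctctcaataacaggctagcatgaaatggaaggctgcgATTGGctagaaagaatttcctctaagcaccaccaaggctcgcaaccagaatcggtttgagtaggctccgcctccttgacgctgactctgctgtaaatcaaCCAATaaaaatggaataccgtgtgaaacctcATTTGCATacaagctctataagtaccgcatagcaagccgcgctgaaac
Hist1h4i: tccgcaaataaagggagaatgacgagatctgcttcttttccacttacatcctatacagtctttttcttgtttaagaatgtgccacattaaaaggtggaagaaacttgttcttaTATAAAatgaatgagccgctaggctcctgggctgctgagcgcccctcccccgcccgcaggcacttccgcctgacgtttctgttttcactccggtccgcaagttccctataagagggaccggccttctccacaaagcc
Hist1h1d: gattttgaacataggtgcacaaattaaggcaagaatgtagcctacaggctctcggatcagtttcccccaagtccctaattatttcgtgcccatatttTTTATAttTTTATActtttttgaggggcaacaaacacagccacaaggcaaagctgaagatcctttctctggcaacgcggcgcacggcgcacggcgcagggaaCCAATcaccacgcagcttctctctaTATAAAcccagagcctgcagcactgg
Both H2B stretches hold CCAAT on each strand and an octamer, and no TATAAA. The Hist1h4i stretch holds TATAAA and no CCAAT, and the Hist1h1d stretch holds both.

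Values are log2 of an unnamed abundance plus 1, and linear values are given in units of that abundance. Libraries summed to between 388454 and 395401 units in control and knockdowns and to between 478651 and 498621 in the motif knockouts, and read depth is unknown. Klf5 was at 4.36 and 4.17 in siKlf5 and at 7.20 and 7.13 in control, and it was at 5.32 and 5.45 in siTfap2c. Tfap2c was at 3.94 and 4.09 in siTfap2c and at 6.61 in both control libraries. The motif change itself has no transcript of its own to check. Of 12 cumulus and granulosa markers, 5 to 10 were at 0 in each library and their summed level ran from 1.25 to 2.33 units. The 10 markers of the 8-cell embryo, which include Tfap2c and of which 9 were tested, summed to between 761 and 1112 units. The control libraries share a table with the motif knockouts alone, so every knockdown value is set against control across tables that may have been scaled apart. All 4 comparisons with control share the same 2 control libraries.

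Summed over all 68 genes, histone RNA was lower in siTfap2c and, less so, in siKlf5, and the types moved unequally. The sum was 6264 and 6250 units in control, 5552 and 5502 in siKlf5, and 4796 and 4928 in siTfap2c. Neither knockdown overlapped control, and the means stood at 0.883 and 0.777 of it. In siKlf5 the H2B sum stood at 0.646 of control, with 813 and 808 units against 1201 and 1306, while the H1 sum stood at 1.01 and those of H2A, H3 and H4 between 0.907 and 0.910. In siTfap2c the 5 sums lay closer together, at 0.785 for H1, 0.819 for H2A, 0.730 for H2B, 0.805 for H3 and 0.751 for H4. With 2 libraries against 2, an exact two-sided permutation test cannot go below a p of 0.333, so the sums carry no test. The 8-cell markers summed to between 852 and 878 units in siKlf5 and between 761 and 821 in siTfap2c, against 1046 and 1059 in control. Of the 9 tested, 1 rose and 4 fell in siKlf5 and 1 rose and 6 fell in siTfap2c, where 7.52% and 24.6% of all genes were called. Tfap2c is itself 1 of these markers, so its fall in siTfap2c was set by the knockdown and enters both the count and the marker sum there. The part of the markers in the histone sums was not tested. Less RNA per cell cannot be told apart here from fewer cells holding the RNA.

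**Figure D1:**
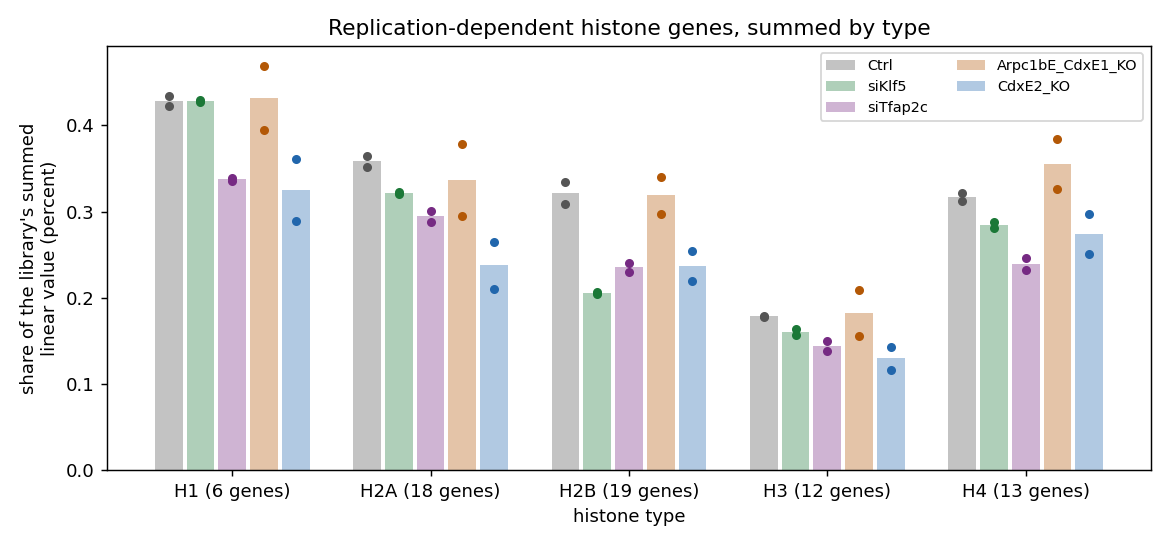
Summed linear value of the histone genes of each type, as a percent of the library's summed value over all genes (bars, group means; points, the 2 libraries of each group). H2B in siKlf5 stood at 0.205% against 0.321% in control, while H1 stood at 0.429% in both, and the 2 libraries of each motif knockout lie far apart.

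As shares of each library's summed value, the 68 genes made up 1.604% ± 0.00446 (SD, n = 2) in control, 1.40% ± 0.0125 in siKlf5 and 1.25% ± 0.0217 in siTfap2c. The weight of each gene in a sum depends on the unnamed abundance, so shares are compared between libraries and not between types. The motif knockouts spread more, with 1.78% and 1.47% in Arpc1bE_CdxE1_KO and 1.32% and 1.09% in CdxE2_KO. The 2 libraries of Arpc1bE_CdxE1_KO therefore lay on either side of control, and both CdxE2_KO libraries lay below it.

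H2B transcripts were lower after Klf5 knockdown. Of 16 tested H2B genes 7 fell, of 18 H2A genes Hist1h2ac fell, and 0 of 6 H1, 0 of 12 H3 and 0 of 12 H4 genes were called in either direction. Genes needed 1 linear unit or more in 2 or more libraries to be tested, which 64 of the 68 members had. A call required a Benjamini-Hochberg adjusted p below 0.05 in limma, over all 11195 genes. In this comparison 8 of 64 histone genes were called lower and 0 higher, while 7.52% of all tested genes were called, 5.27% lower and 2.25% higher. A fit on the 6 libraries of control and knockdowns called 17, 1 of them higher, and a fit without a filter on low values called 3. The median difference was -0.54 over the H2B genes and between -0.05 and -0.14 over the other types, beside -0.02 over all genes. By cluster, 7 of the called genes were in Hist1 and Hist2h2bb was in Hist2.

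Hist1h2bm, a Hist1 H2B gene at chr13:21722044-21722567, was at 6.91 and 6.94 in control and at 6.10 and 6.21 in siKlf5, a fall by 0.77 on the log2 scale (SE 0.0851, adjusted p = 0.0017, limma). Hist2h2bb, an H2B gene of Hist2 that shares no 50-base stretch with another member, was at 6.64 and 6.82 in control and at 5.67 and 5.92 in siKlf5. It fell by 0.94 (SE 0.151, adjusted p = 0.0075, limma), the largest fall among the called genes. Its annotated gene overlaps Gm42743 on the same strand and Gm20628 on the other, so its reads could be shared with these. Hist1h2bk was at 7.05 and 7.25 in control and at 6.34 and 6.45 in siKlf5, and fell by 0.75 (adjusted p = 0.0051, limma). In each of these genes both knockdown libraries lay below both control libraries. Hist1h2be, with the largest fall in Hist1, was at 7.70 and 8.01 in control and at 7.14 and 6.97 in siKlf5, a difference of -0.80 (SE 0.145, adjusted p = 0.013, limma). Hist1h2bj, which had the highest deposited control value among H2B genes, fell by 0.72, and Hist1h2bl by 0.57. The annotated gene of Hist1h2be spans chr13:23583670-23621124 and overlaps Hist1h1e on the same strand, so reads of the pair could be shared. Hist1h1e itself was not called, with 8.45 and 8.26 in siKlf5 against 8.43 and 8.38.

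H2A and H2B genes often sit head to head over a shared promoter, and 13 such pairs lie within 500 bases of each other, 11 of them with both genes tested. In siKlf5 the H2B gene of the pair had the lower difference in 10 of the 11 pairs, with a median of -0.47 for H2B and -0.11 for H2A. The exception was the pair of Hist1h2ba and Hist1h2aa, which encode the TH2B and TH2A variants known from testis and oocytes. Hist1h2bc and Hist1h2ac, separated by 250 bases, both fell. Hist1h2bc was at 5.21 and 5.24 in control and at 4.55 and 4.60 in siKlf5 (difference -0.65, SE 0.0936, adjusted p = 0.0046, limma). Hist1h2ac was at 6.90 and 6.78 in control and at 6.42 and 6.38 in siKlf5 (difference -0.44, adjusted p = 0.024, limma). In the pairs Hist1h2bj with Hist1h2ag, Hist1h2bk with Hist1h2ah and Hist1h2bl with Hist1h2ai, the H2B gene fell and the H2A gene was not called, with differences of -0.04, -0.33 (adjusted p = 0.052, limma) and a value near 0. The difference within pairs was not tested. Of the 6 tested H2B genes with an octamer in the window 3 fell, and of the 8 without one 3 fell, with medians of -0.63 and -0.52.

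H1 and H4 genes gave no call in siKlf5. Hist1h1c, the H1 gene with the highest deposited control value, was at 8.76 and 8.72 in control and at 8.87 and 8.95 in siKlf5, a difference of 0.17 with a 95% confidence interval from -0.15 to 0.49. Hist1h4i differed by -0.03, with an interval from -0.29 to 0.23. After centring each library on its median, 8 histone genes were again called lower and 0 higher, against 7.32% of all genes called, 3.94% lower and 3.39% higher. Leaving out 1 library moved the count of 8 to 4 (without siKlf5 replicate 1), 5 (without siKlf5 replicate 2), 6 (without Ctrl replicate 1) or 3 (without Ctrl replicate 2). Hist1h2bc, Hist1h2bk and Hist1h2bm stayed called each time on the deposited values, and Hist1h2bm alone did after centring.

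**Figure D2:**
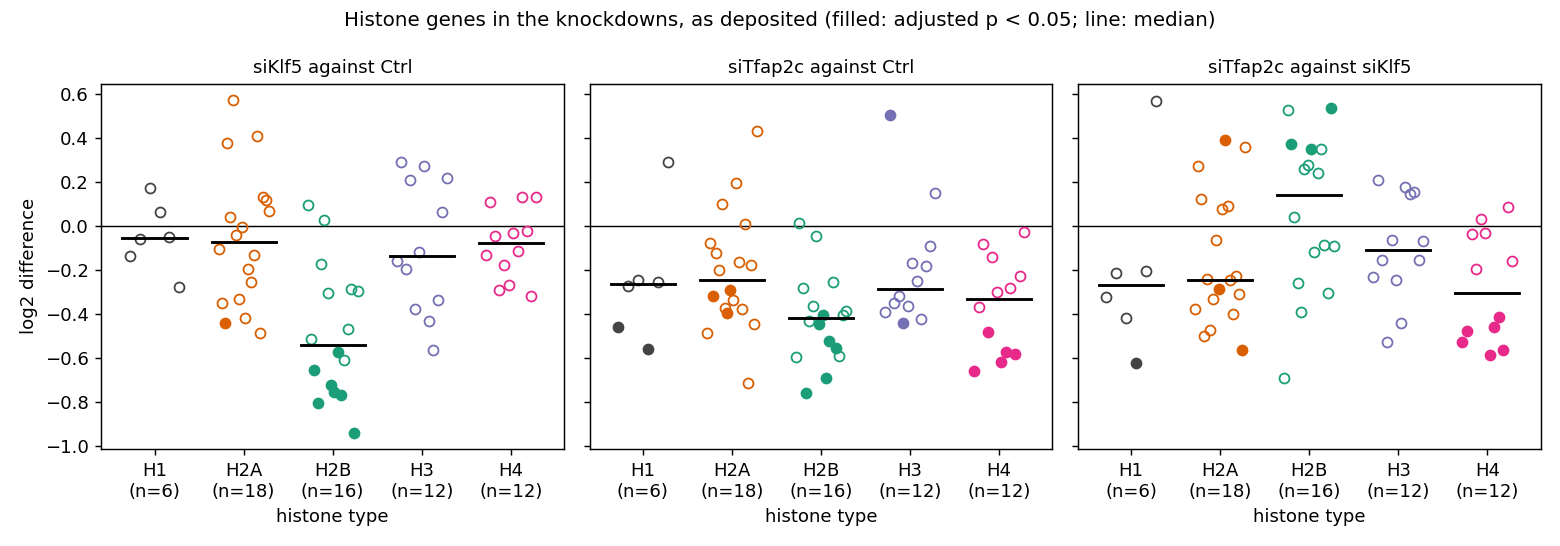
Log2 difference of each tested histone gene by type in the 3 knockdown comparisons, from the deposited values (filled, called by limma at an adjusted p under 0.05; open, not called; black line, median of the type). In siKlf5 the called genes are 7 H2B genes and Hist1h2ac, in siTfap2c 11 of the 17 lower ones are H4 or H2B genes, and between the knockdowns 6 H4 genes were called lower and 3 H2B genes higher in siTfap2c.

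Among the histone genes that fell after Tfap2c knockdown, most encode H4 or H2B. Of 64 tested genes 17 fell and 1 rose: 5 of 12 H4, 6 of 16 H2B, 2 of 6 H1, 3 of 18 H2A and 1 of 12 H3 genes fell, and Hist1h3b rose. Over all genes 24.6% were called in this comparison, 11.9% lower and 12.6% higher, and the H2A and H3 counts are near or below that share. The median difference was -0.33 over the histone genes beside 0.04 over all genes, and 56 of 64 differences were negative, 12 of 12 among H4. All called genes were in Hist1, where 17 of 52 fell. In Hist2, 0 of 10 were called, with a median of -0.21.

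Hist1h1d, a linker histone gene, was at 8.43 and 8.39 in control and at 7.79 and 7.91 in siTfap2c. It fell by 0.56 (SE 0.0931, adjusted p = 0.0023, limma). Of its 50-base words 2.21% are shared with other members, counted over annotated sequence that runs up to 4931 bases past the stop codon. Hist1h1a was at 8.41 and 8.35 in control and at 7.95 and 7.89 in siTfap2c, and fell by 0.46 (adjusted p = 0.031, limma). Both libraries of the knockdown lay below both of control in each of the 18 called genes other than Hist1h3b.

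Among H4 genes, Hist1h4i was at 6.30 and 6.22 in control and at 5.53 and 5.76 in siTfap2c, a fall by 0.62 (SE 0.116, adjusted p = 0.0043, limma). Hist1h4n was at 5.26 and 5.24 in control and at 4.70 and 4.64 in siTfap2c and fell by 0.58 (adjusted p = 0.0053, limma), but 85.6% of its 50-base words also occur in other members, so its reads cannot be placed with certainty. Hist1h4a fell by 0.66, Hist1h4j by 0.57 and Hist1h4d, the H4 gene with the highest deposited control value, by 0.48. The 4 genes Hist1h4a, Hist1h4d, Hist1h4i and Hist1h4j share at most 40.4% of their words with other members, counted over all annotated sequence. That sequence runs from 154 (Hist1h4a) to 822 bases (Hist1h4d) past the stop codon. The share within the coding part was not counted apart, so their reads may be shared as well.

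Among H2B genes, Hist1h2bm was at 6.47 and 6.34 in siTfap2c and fell by 0.52 (SE 0.0851, adjusted p = 0.002, limma). Hist1h2be was at 7.18 and 7.01 and fell by 0.76 (adjusted p = 0.0046, limma), the largest fall of the called genes, and Hist1h2bl fell by 0.69. Hist2h2bb, the H2B gene with the largest fall in siKlf5, was at 6.39 and 6.26 in siTfap2c and was not called (difference -0.40, adjusted p = 0.083, limma). Hist1h3b, an H3 gene, was at 4.95 and 4.69 in siTfap2c against 4.21 and 4.42 in control and rose by 0.50 (SE 0.159, adjusted p = 0.045, limma). Of its words 60.4% are shared, most with Hist1h3h, which was not called (-0.25). Hist1h3e, the H3 gene with the highest deposited control value, was at 6.88 and 6.87 in control and at 6.41 and 6.46 in siTfap2c, and fell by 0.44 (adjusted p = 0.046, limma).

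After median-centring, 19 genes were called lower and 1 higher, against 24.0% of all genes called (12.4% lower and 11.6% higher), and the 18 called on the deposited values were among them. The count of 18 was 38 on the 6 libraries of control and knockdowns, 6 without a filter and 11 without the variance trend. It dropped to 7 without siTfap2c replicate 1, to 8 without either control library and to 12 without siTfap2c replicate 2. Hist1h1d, Hist1h2be, Hist1h2bl, Hist1h2bm, Hist1h4i and Hist1h4n stayed called each time.

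The knockdowns were also compared with each other, siTfap2c against siKlf5, a difference that does not use the control values. Here 6 of 12 H4 genes were lower and 0 higher, and 3 of 16 H2B genes were higher and 0 lower. In all 13 of 64 histone genes were called, 4 higher and 9 lower, against 25.6% of all genes (15.1% higher and 10.5% lower). The H2B count is near the share over all genes, and the difference between types was not tested. The median difference was -0.30 for H4, 0.14 for H2B and 0.05 over all genes. Hist1h1d was at 8.49 and 8.45 in siKlf5 and at 7.79 and 7.91 in siTfap2c (difference -0.62, SE 0.0931, adjusted p = 0.0013, limma). Hist1h4i was at 6.15 and 6.32 in siKlf5 and at 5.53 and 5.76 in siTfap2c (difference -0.59, adjusted p = 0.0055, limma), and Hist1h4n and Hist1h4b differed by -0.56 and -0.48. Of the H2B genes, Hist2h2bb was higher in siTfap2c by 0.53 (adjusted p = 0.028, limma), Hist1h2bc by 0.37 (adjusted p = 0.017, limma) and Hist1h2bk by 0.35 (adjusted p = 0.043, limma). The H2A gene Hist1h2an was higher by 0.39. The tables of the 2 knockdowns are separate, so this comparison also crosses tables. Centred, 2 histone genes were higher and 13 lower, against 24.6% of all genes (11.4% higher and 13.1% lower). H2B then gave 2 genes higher and 1 lower, and H4 again gave 6 lower. The count of 13 was 27 on the 6 libraries of control and knockdowns, 4 without a filter and 6 without the variance trend. It dropped to between 3 and 6 without any 1 of the 4 libraries: 3 without siTfap2c replicate 1, 5 without siTfap2c replicate 2, 3 without siKlf5 replicate 1 and 6 without siKlf5 replicate 2. Only Hist1h1d stayed called in all 4.

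**Figure D3:**
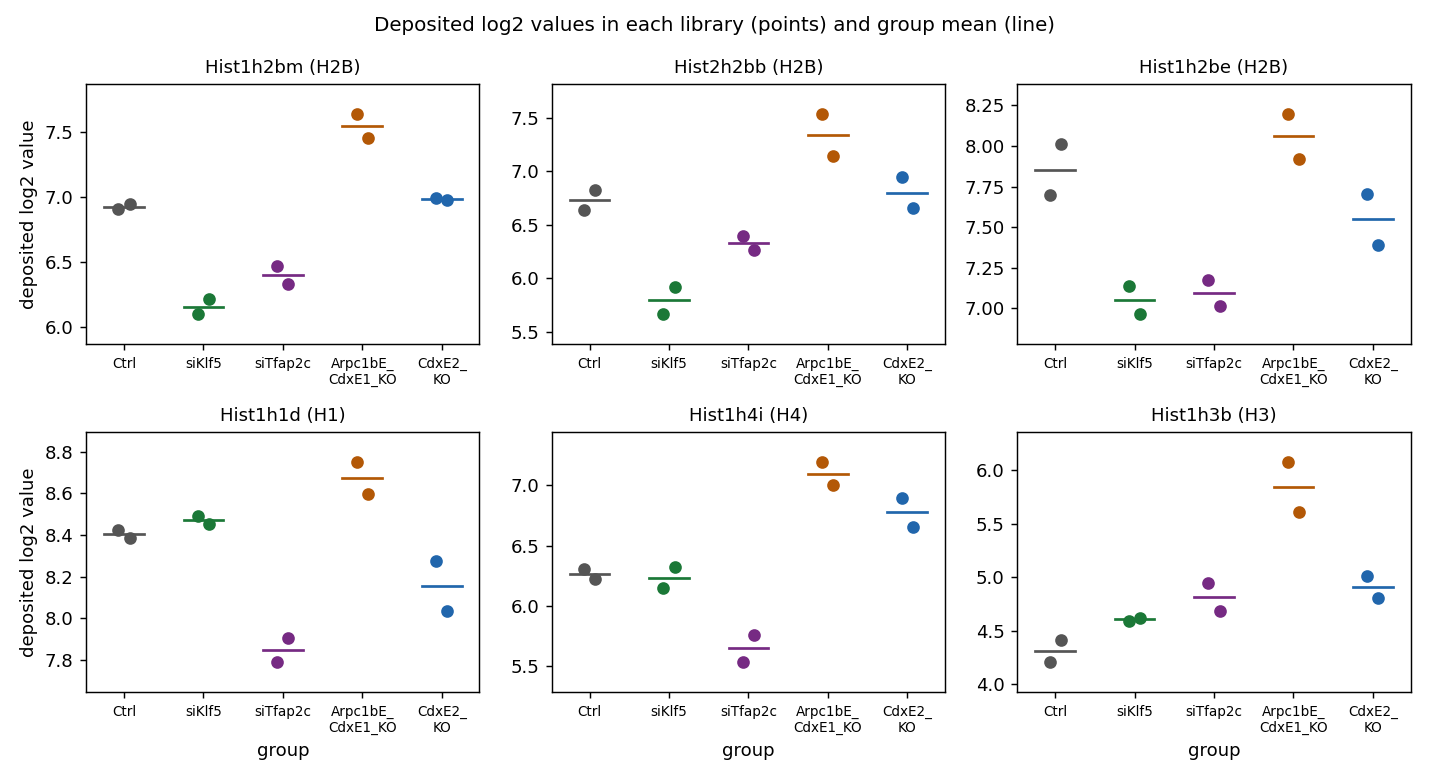
Deposited log2 values of 6 histone genes in all 10 libraries (points, libraries; line, group mean; the axes differ between panels and do not start at 0). Hist1h2bm and Hist1h2be fell in both knockdowns, Hist2h2bb fell in siKlf5 and was not called in siTfap2c, Hist1h1d and Hist1h4i were low in siTfap2c and near control in siKlf5, and Hist1h3b was lowest in control.

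The motif knockout libraries carried a shift of the whole scale against the control libraries of the same table. The median difference of all genes from control was 0.27 in Arpc1bE_CdxE1_KO and 0.29 in CdxE2_KO as deposited, and -0.05 and -0.04 after each library was centred on its median. Changes are therefore given relative to that shift, with the deposited values beside them. In Arpc1bE_CdxE1_KO 6 histone genes rose and 2 fell after centring, against 29 and 2 as deposited. Over all genes 2.94% were called after centring (1.63% higher and 1.31% lower) and 24.0% as deposited (23.2% higher and 0.815% lower). The median over the 64 histone genes was 0.14 after centring and 0.46 as deposited. H4 had the highest median of the types, 0.36 after centring, with 11 of 12 differences positive and Hist1h4f called.

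Hist1h2ad, an H2A gene at chr13:23574381-23574952, was at 2.14 and 2.40 in control and at 4.85 and 4.61 in Arpc1bE_CdxE1_KO. Its difference was 2.14 after centring (SE 0.197, adjusted p = 0.0024, limma) and 2.46 as deposited. In CdxE2_KO it was at 4.54 and 4.0, a difference of 1.67 after centring (SE 0.197, adjusted p = 0.0073, limma) and 2.0 as deposited. In the knockdowns it was at 2.35 and 2.94 and at 2.39 and 1.91, and was not called. Hist2h2aa2 of Hist2 was at 2.74 and 2.92 in control, 4.76 and 5.20 in Arpc1bE_CdxE1_KO and 5.07 and 4.47 in CdxE2_KO, and rose by 1.83 (adjusted p = 0.01, limma) and 1.61 (adjusted p = 0.014, limma) after centring. Both genes lay above control in all 4 motif knockout libraries.

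These H2A genes have near copies, so their single values are uncertain. All 50-base words of Hist2h2aa2 occur in other members, most in Hist2h2aa1, which was not called after centring (0.69 and 0.35). Of the words of Hist1h2ad 67.1% occur elsewhere, most in Hist1h2ah, which fell. Hist1h2ah was at 6.01 and 6.18 in control, 5.66 and 5.58 in Arpc1bE_CdxE1_KO and 5.19 and 5.06 in CdxE2_KO, with differences of -0.80 and -1.30 after centring (adjusted p = 0.011 and 0.0011, limma). Summed over all 18 H2A genes, which such copies share among themselves, the share of a library was 0.365% and 0.352% in control. It was 0.378% and 0.295% in Arpc1bE_CdxE1_KO and 0.265% and 0.211% in CdxE2_KO. The CdxE2_KO sums lay below control and those of Arpc1bE_CdxE1_KO on either side of it.

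Among H3 and H4 genes, Hist1h3b was at 6.08 and 5.61 in Arpc1bE_CdxE1_KO and rose by 1.21 after centring (SE 0.163, adjusted p = 0.014, limma). Hist2h3c2 and Hist2h3c1 of Hist2, near copies of each other, rose by 1.20 and 0.95, and Hist1h4f rose by 0.71 (adjusted p = 0.013, limma). Hist2h3c2 was at 0.998 and 0.69 in control, under 1 linear unit in both libraries, and at 2.51 and 2.23 in Arpc1bE_CdxE1_KO. It passed the filter of this fit only through the motif knockout libraries, so its rise, though counted, is not read as a result. Hist1h2ao fell by 0.79, and 93.5% of its words are shared. The 23 other genes called higher or lower on the deposited values were not called after centring. They included Hist1h1a, Hist1h2bl, Hist1h2bm, Hist1h2bp, Hist1h4i, Hist1h4j, Hist1h4n and Hist2h2bb, which were called higher as deposited here and lower in a knockdown. Hist1h4i and Hist1h4j were also called higher as deposited in CdxE2_KO, and neither was after centring. Without Arpc1bE_CdxE1_KO replicate 2 the count after centring was 13, without Ctrl replicate 1 it was 2 and without Ctrl replicate 2 it was 1, that of Hist1h2ad. As deposited the count of 31 became 2 without a filter, 20 without Arpc1bE_CdxE1_KO replicate 1, 8 without Ctrl replicate 1 and 5 without Ctrl replicate 2.

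In CdxE2_KO 8 of 18 H2A genes fell and 2 rose after centring. In all 16 histone genes fell and 3 rose on that scale, the 3 being Hist1h2ad and Hist2h2aa2 of H2A and Hist2h3c2 of H3. Hist2h3c2 passed the filter only through the motif knockout libraries, so its rise is not read as a result. Over all genes 6.24% were called, 3.6% lower and 2.64% higher. As deposited 10 were lower and 10 higher, against 29.9% of all genes (1.44% lower and 28.5% higher), and the same 8 H2A genes were among the lower ones and 4 H2A genes among the higher ones. Without a filter 3 were called as deposited. The H2A genes that fell were Hist1h2ab, Hist1h2ac, Hist1h2ae, Hist1h2ag, Hist1h2ah, Hist1h2ai, Hist1h2ak and Hist1h2ao, all of Hist1. Hist1h2ao was at 5.28 and 5.35 in control and at 4.11 and 4.25 in CdxE2_KO, a difference of -1.46 after centring (SE 0.0981, adjusted p = 0.00052, limma) and -1.13 as deposited. Hist1h2ak, the H2A gene with the highest deposited control value, was at 8.59 and 8.49 in control and at 7.90 and 7.61 in CdxE2_KO, a difference of -1.12 after centring (adjusted p = 0.016, limma). Hist1h2ae and Hist1h2ai fell by 1.19 and 0.78 after centring. Hist1h2ac was at 6.56 and 6.44 in CdxE2_KO and fell by 0.67 after centring (adjusted p = 0.016, limma). It shares 11.6% of its words with other members, counted over annotated sequence that runs up to 2058 bases past the stop codon. Its stem-loop lies 32 bases past the stop codon, and the share up to the stem-loop was not counted apart.

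Outside H2A, Hist1h1e and Hist1h1d, Hist1h2bh, Hist1h2bj and Hist1h2bk, and Hist1h3e, Hist1h3h and Hist2h3b fell after centring, and 0 of 12 H4 genes were called. Hist1h1e was at 8.43 and 8.38 in control and at 8.13 and 7.72 in CdxE2_KO, a difference of -0.81 after centring (SE 0.138, adjusted p = 0.025, limma). Of the 19 called after centring, 9 were left without CdxE2_KO replicate 1, 6 without CdxE2_KO replicate 2, 2 without Ctrl replicate 1 and 3 without Ctrl replicate 2. Hist1h2ah and Hist1h2ao stayed called each time. As deposited the count of 20 became 12, 7, 5 and 5 in the same order.

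**Figure D4:**
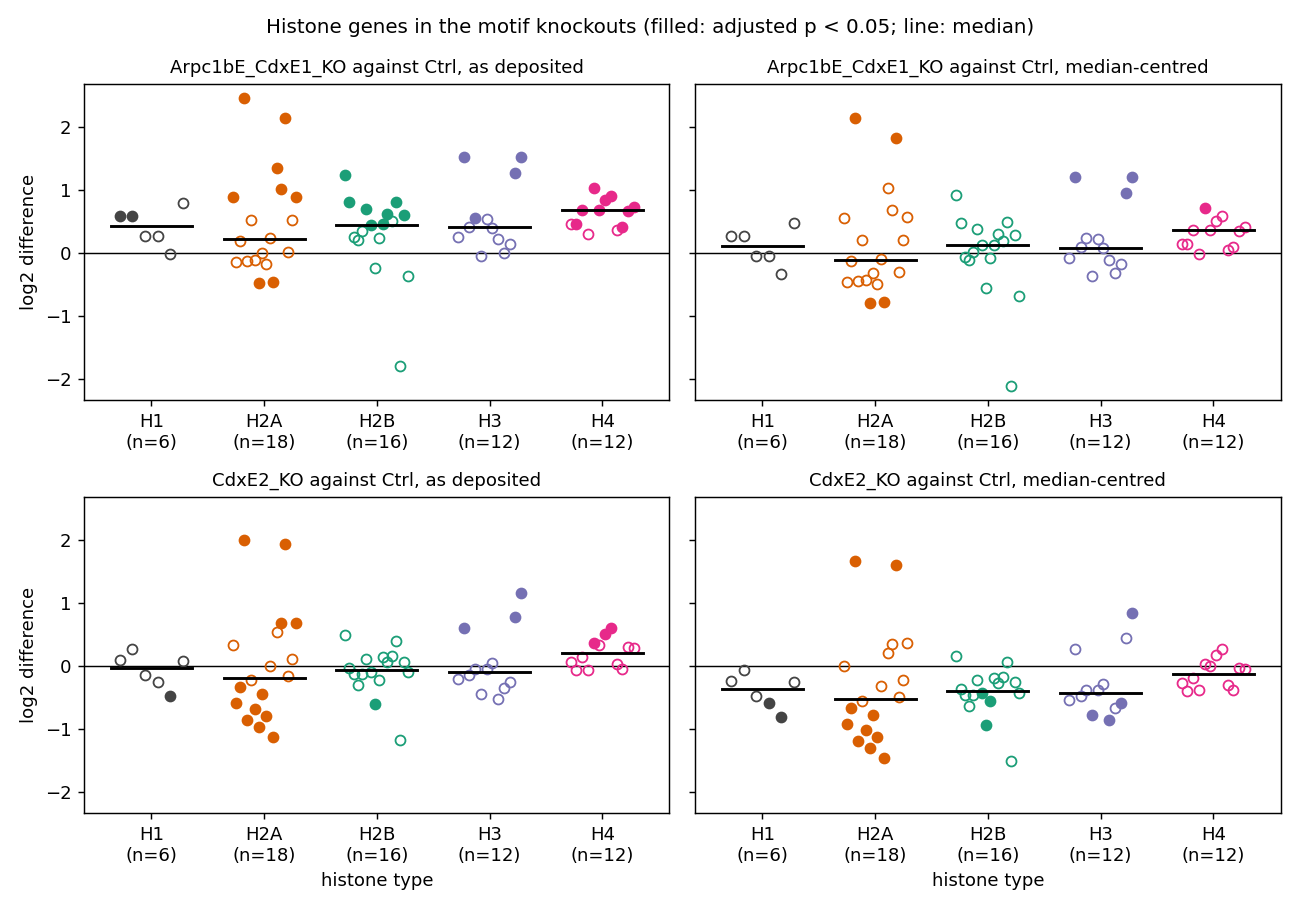
Log2 difference from control of each tested histone gene by type in the 2 motif knockouts, as deposited (left) and after median-centring (right; filled, called by limma at an adjusted p under 0.05; black line, median of the type). Centring lowers all points of a knockout by the same amount, after which 8 H2A genes of CdxE2_KO lie below 0 as called, and Hist1h2ad and Hist2h2aa2 stay above it in both knockouts.

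Between the motif knockouts no histone gene was called. In CdxE2_KO against Arpc1bE_CdxE1_KO limma called 0 of 64 histone genes on either scale and 0.0458% of all genes (0.0366% higher and 0.00916% lower). Of the 64 differences 62 were negative, with a median of -0.46 beside 0.02 over all genes. At an unadjusted p under 0.05, 49 histone genes were lower and 0 higher, against 5.13% of all genes lower. After centring 50 were lower at that level, against 5.89% of all genes. The histone genes of a library move together and the replicates of each knockout differed in most of them, so these counts are a description of 4 libraries and show no difference between the knockouts. The medians by type lay between -0.48 and -0.39. Without Arpc1bE_CdxE1_KO replicate 2, 17 histone genes were called lower.

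The libraries of a motif knockout also differed between themselves. Replicate 1 lay above replicate 2 in 59 of 64 histone genes in Arpc1bE_CdxE1_KO, by a median of 0.25, and in 55 of 64 in CdxE2_KO, by a median of 0.25. Over all genes the same medians were 0.02 and -0.01. In control, siKlf5 and siTfap2c replicate 1 was the higher in 35, 36 and 33 of 64. After centring, the median of the 64 genes against the control mean was 0.29 and -0.04 in the 2 libraries of Arpc1bE_CdxE1_KO and -0.26 and -0.48 in those of CdxE2_KO. In siTfap2c it was -0.36 and -0.29, and in siKlf5 it was -0.09 and -0.11. The 4 motif knockout libraries were thus spread over a range in which 1 lay above control, 1 near it and 2 below it.

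**Figure D5:**
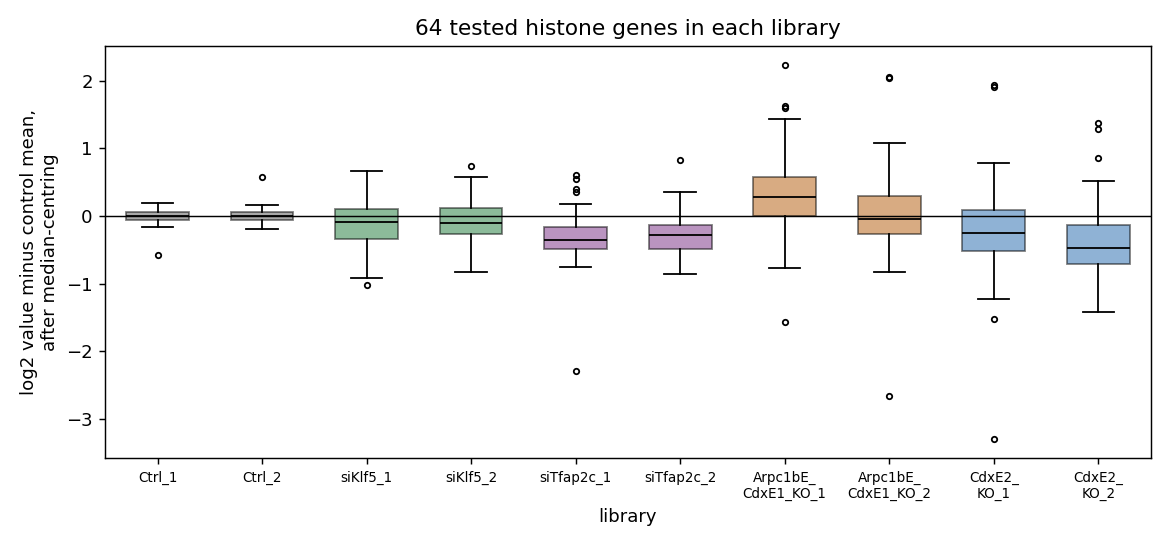
Log2 value of the 64 tested histone genes minus the mean of the control libraries, after median-centring, in each library (box, quartiles; line, median; whiskers, 1.5 times the interquartile range; points, genes beyond). The medians of the 2 libraries are -0.09 and -0.11 in siKlf5 and -0.36 and -0.29 in siTfap2c, against 0.29 and -0.04 in Arpc1bE_CdxE1_KO and -0.26 and -0.48 in CdxE2_KO.

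Among the testis-type members and the genes of Hist3 and Hist4, 0 were called after centring in either motif knockout. Hist1h2ba, the TH2B gene, was at 4.73 and 4.49 in control, 6.07 and 5.64 in Arpc1bE_CdxE1_KO and 5.47 and 4.75 in CdxE2_KO. In Arpc1bE_CdxE1_KO its difference was 1.24 as deposited (adjusted p = 0.017, limma) and 0.92 after centring, which was not called (adjusted p = 0.088, limma). Hist1h2aa, the TH2A gene, differed by 0.88 as deposited and by 0.56 after centring (adjusted p = 0.15, limma). Hist1h1t, the testis H1 gene, was at 1.94 and 3.09 in control and overlapped all other groups. The 8 spermatid and spermatocyte markers summed to between 10.2 and 13.1 units in control and knockdowns and to between 17.0 and 20.3 in the motif knockouts, with 2 to 6 of them at 0 in each library. Neither of the 2 tested was called after centring, and their part in these values was not tested.

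Hist3h2a, the 1 tested gene of Hist3, was at 3.84 and 3.48 in control, 4.23 and 3.95 in siTfap2c, 4.61 and 4.49 in Arpc1bE_CdxE1_KO and 4.17 and 4.52 in CdxE2_KO. Both knockout rises were called as deposited (0.89 and 0.69) and neither after centring. Hist4h4, the 1 gene of Hist4, was at 2.04 and 1.83 in control, was called higher in Arpc1bE_CdxE1_KO as deposited (0.74) but not after centring (0.41), and was not called in either knockdown (0.13 and -0.03). Of the 4 members that were not tested, Hist1h2bq was listed at 0 in all 10 libraries, and Hist1h4m, Hist3h2ba and Hist3h2bb-ps stayed at or below 0.99. Hist1h2br ranged from 1.85 to 5.44 between the 2 libraries of CdxE2_KO, and Hist2h2aa2 from 0.56 to 3.67 between those of siTfap2c. Both have near copies, with 88.7% of the words of Hist1h2br and all of those of Hist2h2aa2 shared.

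Of the dedicated regulators, Slbp was called in none of the comparisons and Npat rose in siTfap2c. Slbp was at 6.0 and 5.95 in control, 5.97 and 6.06 in siKlf5, 6.04 and 5.78 in siTfap2c, 6.32 and 5.73 in Arpc1bE_CdxE1_KO and 5.84 and 6.12 in CdxE2_KO. Every group overlapped control. Npat was at 4.31 and 4.28 in control and at 4.87 and 4.81 in siTfap2c, and rose there by 0.55 (SE 0.0925, adjusted p = 0.0025, limma). In siKlf5 it was at 4.25 and 4.31.

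Of 36 tested genes for histone transcription and mRNA processing, 1 rose and 1 fell in siKlf5, and 7 rose and 5 fell in siTfap2c, beside 7.52% and 24.6% of all genes called. In siTfap2c Hinfp, the H4 promoter factor, rose by 0.92, and Ccne1, a cyclin of S-phase entry, rose by 0.60. Ncbp1, a cap-binding protein, fell by 0.61 there, Cdk2, the kinase partner of cyclin E, by 0.56, and Eri1, an exonuclease that trims the stem-loop, by 0.46. In siKlf5 Ncbp1 rose by 0.39 and Upf1, a helicase of histone mRNA decay, fell by 0.33, a call that was lost on centring. Of 27 S-phase genes 0 were called in siKlf5, and 2 rose and 7 fell in siTfap2c, beside the same shares. Those that fell there included Tyms, thymidylate synthase (by 1.17), Cdc25a, a phosphatase of the cell cycle (by 0.72), and the replicative helicase subunits Mcm5 (by 0.56) and Mcm6 (by 0.50), while Cdc45 rose by 0.46 and Pola1 by 0.42.

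Replication-independent variants were measured beside them. Of 12 tested, 2 rose and 2 fell in siKlf5, where 7.52% of all genes were called: H2afj by 0.64 and H3f3b, an H3.3 gene, by 0.25 upward, with Cenpa, the centromeric H3, at -0.92 and H2afy, macroH2A1, at -0.95. In siTfap2c Cenpa fell by 0.84, and H1f0 and H3f3b rose by 0.32 and 0.20, calls that were lost on centring. Of 28 chaperones, 2 rose and 2 fell in siKlf5 and 3 rose and 3 fell in siTfap2c, the latter below the 24.6% of all genes called. Nap1l1, an H2A and H2B chaperone, rose in both, by 0.45 and 0.61, as did Anp32e, a chaperone of H2A.Z, by 0.57 and 0.51. Tonsl, which binds new H3 and H4, fell by 0.50 in siKlf5, a call that was lost on centring, and by 0.76 in siTfap2c. Cabin1, a subunit of the Hira complex, fell by 1.27 in siKlf5, Asf1b, an H3 and H4 chaperone, rose by 0.75 in siTfap2c, and Ipo4, an importin for H3 and H4, fell there by 0.71, as did Atrx, a remodeller that places H3.3, by 0.53. After centring, 0 genes of the lists of processing, variants, chaperones and S phase were called in Arpc1bE_CdxE1_KO. In CdxE2_KO 2 were higher, Nfyb, a subunit of the CCAAT-binding factor, by 0.46 and Cdc25a by 0.53. As deposited the lists of 36, 12, 28 and 27 tested genes gave 12, 5, 12 and 10 genes higher in Arpc1bE_CdxE1_KO and 13, 4, 12 and 13 in CdxE2_KO, and 0 lower, where 23.2% and 28.5% of all genes were called higher.

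Near-identical copies limit all single-gene values. Of the 64 tested members, 36 share at most 50% of their 50-base words with other members and 28 share more. These shares count all annotated sequence, also that past the stem-loop, so members with long annotated 3′ ends fall more easily among the 36. Among the 36, 5 fell in siKlf5, 10 fell in siTfap2c, 2 rose in Arpc1bE_CdxE1_KO and 5 fell in CdxE2_KO, the counts of the motif knockouts after centring. Among the 28, 3 fell in siKlf5, and 7 fell and 1 rose in siTfap2c. After centring, 4 of the 28 rose and 2 fell in Arpc1bE_CdxE1_KO, and 3 rose and 11 fell in CdxE2_KO. Over all genes 7.52%, 24.6%, 2.94% and 6.24% were called in these 4 comparisons. Most centred calls in the motif knockouts were thus among the members that share more. All 18 H2A genes overlap an annotated gene on the other strand. How the authors' counting treated strand and reads with several matches is not given in the sources used here.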

How the data were processed

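Total RNA of 10 libraries of 8-cell embryos was sequenced, with zona and polar bodies removed and ribosomal sequences depleted after amplification, per the labels' protocols. The deposited values are log2 of an abundance plus 1, with the kind of abundance and any length scaling not named, so levels of different genes are not comparable; the highest deposited control value serves only to pick a gene to name. HISAT2 2.1.0, SAMtools 1.7, StringTie 1.3.4, Cufflinks and mm10 are named in the submitters' processing notes, without roles. No counts were used, so depth is unknown, and no interval covers counting error.

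Tests covered genes that reached 1 linear unit in 2 or more libraries, and used limma 3.58.1 in R 4.3.3 (moderated variances with a mean trend) on the deposited log2 values and again after each library was centred on its median over the tested genes. Knockdown fits used all 10 libraries (11195 genes) and motif knockout fits the 6 libraries of their own table (10920 genes). P-values were adjusted over all tested genes by Benjamini-Hochberg, and the threshold was 0.05. Linear sums are sums of the values with the log undone. The script was tested on simulated data.

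Members, gene lists and tests were chosen with earlier results of these data known. Named were, for each comparison, the 4 called members with the lowest p in each direction, the member of each type with the highest control mean, members called in opposite directions, lone members of a type or cluster, the 3 called genes of each list with the lowest p in each direction, Slbp and Npat. Others named for a count or a shared promoter were chosen after their values were seen. The lists held genes of histone transcription and mRNA processing, replication-independent variants, chaperones, S phase, and markers of the 8-cell embryo, of cumulus and granulosa cells and of spermatids and spermatocytes. Gene models, shared words of 50 bases and stem-loops came from GENCODE M21 (mm10) transcripts, and promoters from RefSeq on GRCm38.p6. Over all 11195 tested genes same-numbered libraries did not deviate together (correlations from -0.050 to 0.044). Among the 64 histone genes, however, replicate 1 was the higher in 59 in Arpc1bE_CdxE1_KO and in 55 in CdxE2_KO. The labels do not say that a replicate number marks a shared pool or day, so replicate numbers were not taken as pairs in the main fits. Alternatives were other filters, pseudocounts, scalings and fits, and leaving out each library.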

Additional observations from a re-analysis of the deposited data

How the results depend on the processing

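No histone gene called on the deposited values changed direction under any single alternative. Leaving out a library after centring was not part of this count, nor were the calls made after centring. Hist1h2bh, called lower in CdxE2_KO after centring, was at 6.20 in replicate 1 as deposited, against 6.19 and 6.18 in control. Genes that were not called did change direction on centring, such as Hist1h2ac in Arpc1bE_CdxE1_KO (0.19 as deposited, -0.13 centred). The median over the histone genes in CdxE2_KO as deposited, -0.04, was 0.07 without CdxE2_KO replicate 2. Counts of called histone genes depended on the library set and the filter. Without a filter the counts were 3 in siKlf5 (8 as reported), 6 in siTfap2c (18), 2 in Arpc1bE_CdxE1_KO (31), 3 in CdxE2_KO (20) and 4 in siTfap2c against siKlf5 (13). A fit on the 6 libraries of control and knockdowns gave 17, 38 and 27 for the 3 knockdown comparisons. Without the variance trend siTfap2c gave 11 and siTfap2c against siKlf5 gave 6. Centring or a common sum gave 8 in Arpc1bE_CdxE1_KO. The cause of these shifts was not tested. Leaving out 1 library gave 3 to 6 in siKlf5, 7 to 12 in siTfap2c, 5 to 42 in Arpc1bE_CdxE1_KO, 5 to 12 in CdxE2_KO, 3 to 6 in siTfap2c against siKlf5 and 0 to 17 in CdxE2_KO against Arpc1bE_CdxE1_KO. After centring, with alternatives chosen after seeing the data, the ranges were 1 to 5 of 8, 7 to 13 of 20, 1 to 13 of 8, 2 to 9 of 19, 3 to 7 of 15, and 0 to 17 of 0, in that order. With the replicate number as a block the counts were 9, 22, 36, 24, 17 and 0 as deposited, and 9, 24, 11, 17, 16 and 0 after centring. Read depth is unknown, so its limit on low genes cannot be given.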
